A study of Mus musculus with 12 samples.

Results

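The genes described here encode the proteins that recognise and assemble on introns: the heterogeneous nuclear ribonucleoproteins (hnRNPs), the serine/arginine-rich (SR) proteins and the protein subunits of the small nuclear ribonucleoproteins (snRNPs). They were chosen by name, as protein-coding genes whose symbol starts with Hnrnp, Srsf, Snrnp or Snrp and whose mean raw read count over the 12 libraries was at least 50. Of 54532 genes in the table, 50 were protein-coding and matched by name, and 49 met the count minimum: 20 hnRNP, 10 SR and 19 snRNP genes. Srsf12 fell outside with a mean of 33.3 reads, and the member nearest the minimum on the inside was Snrnp48 with 291 reads. Another 5 genes with matching symbols were annotated as pseudogenes and were left out, of which only Snrpert, with a mean of 197 reads, was counted at more than a few reads.

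RNA from 12 whole mouse embryos (strain C57BL6/J, embryonic day 9.5) had been sequenced, 1 library of total RNA per embryo. Of these, 6 were Traf7-*/-* (KO) and 6 were wild type (WT). In KO embryos Traf7 was deleted in every tissue, by E2a-Cre acting on a floxed Traf7 allele. The asterisk marks the line whose floxed chromosome also carries a small deletion in the gene 2310061I04Rik on chromosome 17, so that effects of the 2 loci cannot be told apart, and these homozygotes die at about the stage sampled. The series title and design text speak of brain, whereas the label of every sample gives an embryo, which was followed here.

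Libraries held between 16675204 and 21917571 counted reads. Levels below are given as CPM, the reads of a gene scaled to a common library size with TMM factors. Traf7 was at 17.2 ± 2.22 CPM (SD, n = 6) in KO and 122 ± 11.4 CPM (SD, n = 6) in WT embryos, a log2 fold change of -2.83 (edgeR adjusted p = 2.4e-10). The second gene, 2310061I04Rik, was at 2.38 ± 1.99 CPM in KO and 12.1 ± 3.64 CPM in WT embryos (SD, n = 6). Its log2 fold change was -2.35 (edgeR adjusted p = 0.155), with the highest KO value at 6.39 and the lowest WT value at 7.2 CPM. Of 7 markers of postnatal glia and myelin, 3 were counted often enough to be tested, the list summed to between 30.1 and 39.8 CPM in every embryo, and Opalin was at 0 in all 12. Embryos differed in the tissues they held: the summed heart muscle markers ranged from 34.5 to 1291 CPM in KO and from 790 to 1183 CPM in WT embryos, and the yolk sac endoderm markers from 1.37 to 419 CPM in KO and from 23.9 to 267 CPM in WT. In whole embryos, fewer cells of a type and less RNA per cell cannot be told apart. Nothing in the labels says which embryos were littermates, so litter was not modelled. The p-values below set the difference between groups against the spread between embryos within groups, and treat the embryos as independent.

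Splicing removes introns in steps. The U1 snRNP binds the start of an intron and the U2 snRNP its branch site, the U4/U6.U5 tri-snRNP then joins, and the catalytic core forms after rearrangement by helicases. Each of these particles except U6 carries a ring of Sm proteins around its RNA, plus proteins of its own. SR proteins bind exons and recruit U1 and U2, whereas hnRNPs coat the precursor RNA and often oppose the use of a site, so that the balance between these families sets many alternative exons. SR genes control their own output by splicing in poison exons, which carry a premature stop and send the transcript to nonsense-mediated decay.

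In the GENCODE vM21 annotation of GRCm38, 9 of the 10 SR genes had at least 1 transcript of the nonsense-mediated decay class, against 10 of 20 hnRNP genes, 5 of 19 snRNP genes and 27.5% of 13400 protein-coding genes tested. Srsf10 was the SR gene without one. The deposited counts are per gene, so they do not separate such transcripts from the productive ones.

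Promoter windows, each running from 250 bases before to 50 bases after a transcription start (RefSeq, GRCm38.p6), were matched by symbol for 44 of the 49 members. A gene with more than 1 window was counted once. Hnrnpll, Hnrnpul2, Snrnp40, Snrpb and Snrpd1 had no match. The windows of Srsf6 and Srsf2 are shown because these SR genes stood lowest in the embryo described further down, that of Srsf9 because this SR gene stood close to its WT level there, and that of Snrnp70 because it had the smallest p of the members in the test of KO against WT. Capitals mark 6 short motifs on either strand. The letters GGGCGG are the GC box, and CCAAT and the letters TATAAA are the boxes known by these names. The letters ACGTG are the core of the hypoxia response element, and CCGGAAG is a motif of ETS factors. The last, GCATGCGC, is the core of the NRF1 motif. No motif contains another.

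Srsf6 (chr2:162931258-162931557, plus strand): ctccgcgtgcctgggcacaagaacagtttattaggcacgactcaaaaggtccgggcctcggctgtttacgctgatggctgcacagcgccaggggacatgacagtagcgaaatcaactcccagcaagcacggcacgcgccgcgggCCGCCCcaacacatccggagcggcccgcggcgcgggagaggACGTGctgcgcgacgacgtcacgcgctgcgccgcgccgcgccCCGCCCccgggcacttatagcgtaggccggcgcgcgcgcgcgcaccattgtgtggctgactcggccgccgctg

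Srsf2 (chr11:116853045-116853344, minus strand): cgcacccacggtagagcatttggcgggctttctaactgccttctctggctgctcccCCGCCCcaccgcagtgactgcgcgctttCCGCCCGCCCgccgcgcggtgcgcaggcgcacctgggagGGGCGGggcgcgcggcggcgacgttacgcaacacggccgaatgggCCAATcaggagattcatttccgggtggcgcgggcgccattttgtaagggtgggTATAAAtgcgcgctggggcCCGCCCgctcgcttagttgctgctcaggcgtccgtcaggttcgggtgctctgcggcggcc

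Srsf9 (chr5:115326927-115327226, plus strand): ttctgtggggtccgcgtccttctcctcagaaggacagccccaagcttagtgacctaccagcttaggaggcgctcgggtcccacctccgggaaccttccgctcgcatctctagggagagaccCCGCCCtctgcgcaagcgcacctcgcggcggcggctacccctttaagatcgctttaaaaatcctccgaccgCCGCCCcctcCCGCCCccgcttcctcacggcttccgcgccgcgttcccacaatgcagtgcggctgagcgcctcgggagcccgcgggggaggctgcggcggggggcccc

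Snrnp70 (chr7:45395693-45395992, minus strand): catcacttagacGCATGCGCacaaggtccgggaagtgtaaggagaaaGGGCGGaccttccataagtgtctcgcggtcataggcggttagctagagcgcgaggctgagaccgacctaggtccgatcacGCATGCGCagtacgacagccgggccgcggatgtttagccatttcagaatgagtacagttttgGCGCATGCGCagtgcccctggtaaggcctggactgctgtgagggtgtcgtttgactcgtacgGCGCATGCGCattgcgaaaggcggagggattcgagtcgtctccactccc

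The windows of Srsf6, Srsf2, Srsf9 and Snrnp70 all held a GC box. That of Srsf2 also held a CCAAT box and a TATA box, and of the 4 only that of Srsf6 held the hypoxia core. A GC box was present in 9 of 10 SR, 14 of 18 hnRNP and 11 of 16 snRNP genes matched, against 38.2% of 27025 genes in the promoter table. A CCAAT box was present in 13 of 18 hnRNP, 4 of 10 SR and 5 of 16 snRNP genes, against 41.1% of all genes. The ETS letters were present in 6 of 16 snRNP, 4 of 10 SR and 2 of 18 hnRNP genes, against 9.93%, and the hypoxia core in 2 of 10 SR, 10 of 18 hnRNP and 5 of 16 snRNP genes, against 21.8%. The Snrnp70 window was the one of the 4 with the NRF1 core, which occurred in 4 of 44 members and 3.05% of all genes. A TATA box was found in 7 of 44 members and 15.7% of all genes. The members' windows were also rich in CpG, with a median of 25.5 CpG per window against 7 over the table. These matches describe the letters only.

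Levels of different genes were compared by the deposited FPKM, which divides by gene length. Hnrnpa1, which packages nascent transcripts and represses exons, was the most abundant member with a mean of 835 FPKM over the 12 embryos. Hnrnpa0 at 625 FPKM and Hnrnpab at 533 FPKM followed. Among SR genes the highest were Srsf2 at 199, Srsf7 at 152 and Srsf1 at 149 FPKM. Among snRNP genes they were the Sm ring genes Snrpb at 235, Snrpd1 at 194 and Snrpf at 124 FPKM. The lowest member was Snrnp48, a protein of the minor U11/U12 particle that reads a rare class of introns, at 1.52 FPKM. Together the 49 genes took 2.39% to 2.54% of all counted reads in WT embryos and 1.97% to 2.47% in KO embryos.

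No member passed the edgeR quasi-likelihood test between KO and WT embryos (Benjamini-Hochberg adjusted p of 0.05 or less). That test called 3 of 14804 genes in all, or 0.0203%. Below an unadjusted p of 0.05 it placed 10 members lower in KO, against 7.72% of all genes tested, and 1 higher, against 10.1%. DESeq2 called 1 member, Snrnp70, lower in KO, where 0.832% of 14310 genes were called lower, and limma-voom with quality weights called the same gene, where 0.182% were. No member had a fitted log2 fold change of 1 or more in size, and the largest was 0.30 for Snrnp48, which was 0.13 without KO embryo 5.

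The fitted changes were small and mostly on the lower side. Of the 49 members, 39 had a log2 fold change below 0, and the median was -0.08, against 48.4% of all genes below 0 and a median of 0.01 over all genes. By family the median was -0.07 for hnRNP genes (17 of 20 below 0), -0.13 for SR genes (10 of 10) and -0.06 for snRNP genes (12 of 19). Without KO embryo 5 the median over members was -0.05, with 32 below 0. By family it was then -0.05 for hnRNP genes, -0.07 for SR genes, of which 6 of 10 were below 0, and -0.04 for snRNP genes. Without KO embryos 2, 3 and 5 the median was -0.02.

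**Figure D1:**
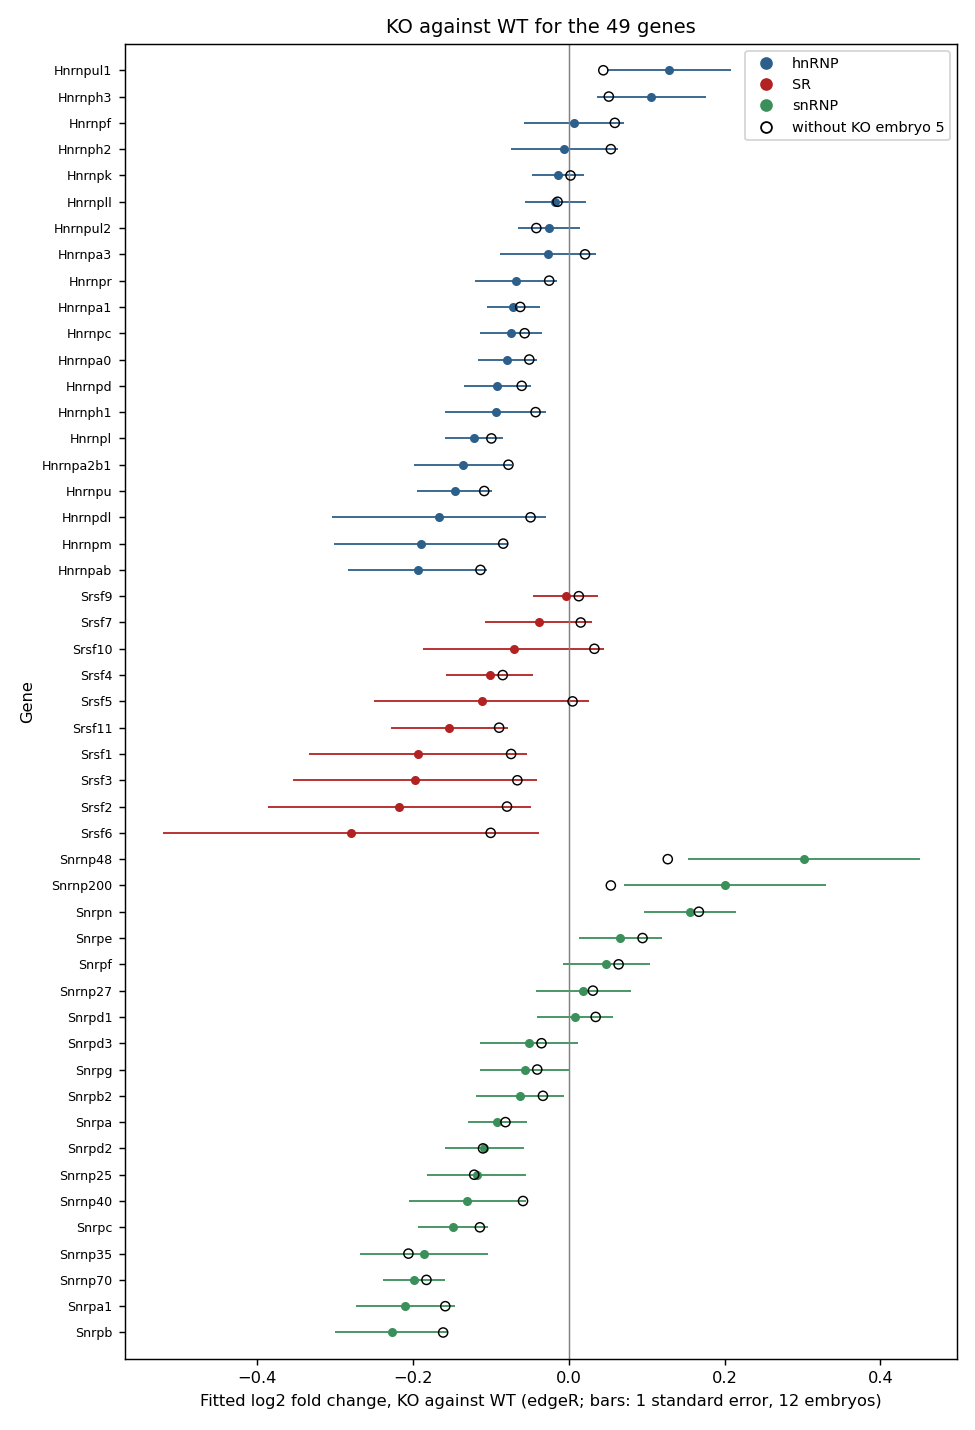
Fitted log2 fold change (horizontal axis, KO against WT, edgeR) of the 49 genes (vertical axis), coloured by family. Filled points and bars are the estimate and 1 standard error from all 12 embryos and open circles the estimate without KO embryo 5; the bar of Srsf6 is the longest of the 49, and Snrnp70 lies at -0.20 with a standard error of 0.04.

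Of the genes of the U1 particle, 2 of 3 had every KO embryo below every WT embryo, against 1.74% of genes tested. Snrnp70, the U1-70K protein that holds the U1 RNA and is the contact of SR proteins on U1 (chromosome 7, 45376453 to 45395742), ranged from 332 to 373 CPM in KO embryos with a median of 354, and from 388 to 415 CPM in WT embryos with a median of 408. The groups did not overlap. Its log2 fold change was -0.20 with a standard error of 0.04 (edgeR adjusted p = 0.159, DESeq2 adjusted p = 0.00286, voom adjusted p = 0.038). DESeq2 called it in 12 of 12 fits that each left out 1 embryo, with adjusted p from 0.000855 to 0.0242, and edgeR in none of them, with adjusted p from 0.066 to 0.292. The call thus depended on the tool, and no single embryo decided it.

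Snrpc, the U1-C protein that helps U1 read the intron's first bases, ranged from 119 to 141 CPM in KO with a median of 139, and from 147 to 155 CPM in WT with a median of 150. Again every KO embryo lay below every WT embryo, with KO embryo 5 the lowest. The log2 fold change was -0.15 with a standard error of 0.05 (edgeR adjusted p = 0.171). Snrpc lies on chromosome 17 (27838150 to 27851968), between Traf7 (24508562 to 24527938) and 2310061I04Rik (35892677 to 35897431), as do the members Srsf3 and Hnrnpm. The part of this linkage in their values was not tested. The remaining U1 protein gene, Snrpa, was at 200 ± 8.1 CPM in KO and 213 ± 5.45 CPM in WT embryos (SD, n = 6), with a log2 fold change of -0.09 and groups that overlapped. All 3 U1 genes were lower at an unadjusted p under 0.05, against 7.72% of genes tested, and their median log2 fold change was -0.15 with all embryos and -0.11 without KO embryo 5.

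**Figure D2:**
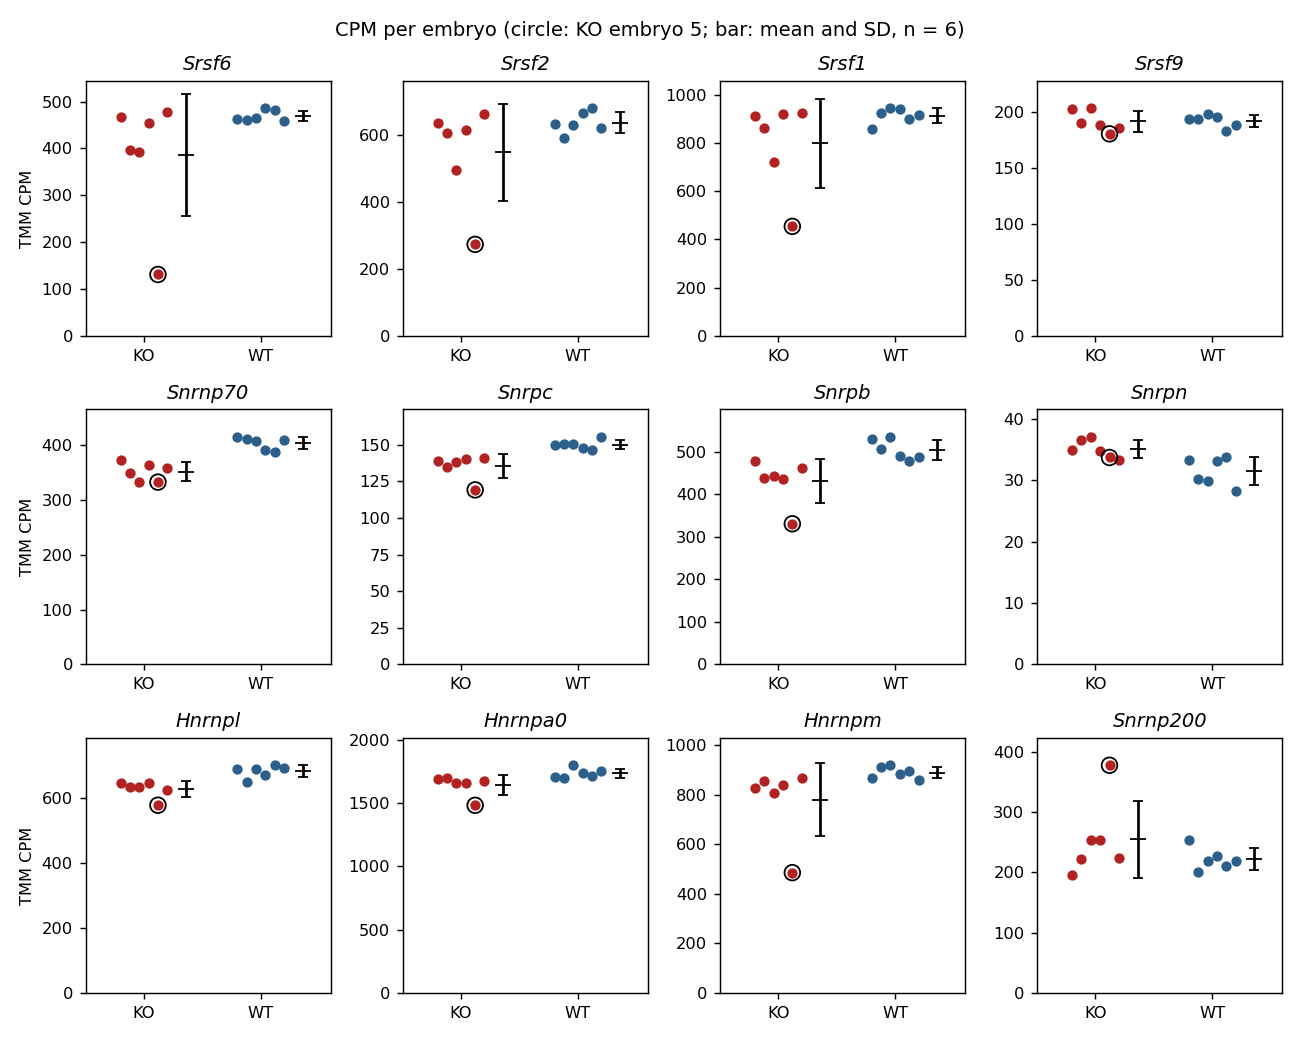
CPM (vertical axis, from 0) of 12 of the genes in each KO (red) and WT (blue) embryo, with a circle around KO embryo 5 and the mean and SD (n = 6) beside each group. All KO values are below all WT values for Snrnp70, Snrpc, Snrpb, Hnrnpl and Hnrnpa0, but the nearest points of Snrpb, Hnrnpl and Hnrnpa0 lie almost at the same height. For Srsf6, Srsf2, Srsf1 and Hnrnpm KO embryo 5 lies far below the rest and for Snrnp200 far above.

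In all, 5 members had every KO embryo below every WT embryo, against 1.74% of genes tested, and none had every KO embryo above, against 1.09%. Besides Snrnp70 and Snrpc these were Snrpb, Hnrnpl and Hnrnpa0. Their direction was the same under each alternative fit, and none of the other 4 was called by any of the 3 tools with all 12 embryos. Without KO embryo 5, DESeq2 called 5 members lower, namely Snrnp70, Snrpc, Snrpb, Hnrnpl and Snrpa1, where it called 2.03% of 13612 genes lower.

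Among the Sm ring genes, 4 of 8 had a log2 fold change below 0 and the median was -0.02. Snrpb, which encodes the SmB and SmB' proteins, ranged from 330 to 477 CPM in KO with a median of 441, and from 478 to 535 CPM in WT with a median of 498. The groups did not overlap, and KO embryo 5 was the lowest. The log2 fold change was -0.23 with a standard error of 0.07 (edgeR adjusted p = 0.18). Snrpn, chosen after its values were seen, encodes SmN, the close relative of SmB that replaces it in neurons, and is transcribed from the paternal chromosome. It ranged from 33.3 to 37.1 CPM in KO with a median of 34.9, and from 28.3 to 33.9 CPM in WT with a median of 31.7, a log2 fold change of 0.16 with a standard error of 0.06 (edgeR adjusted p = 0.211). It was the 1 member on the higher side at an unadjusted p under 0.05, its groups overlapped, and its level was 15.3 FPKM against 235 FPKM for Snrpb. Snrpd1 and Snrpf, on the other ring positions, had log2 fold changes of 0.01 and 0.05, with overlapping groups.

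The U2 genes were both on the lower side. Snrpa1, the U2-A' protein, ranged from 83.8 to 114 CPM in KO with a median of 103, and from 113 to 125 CPM in WT with a median of 117. The highest KO value passed the lowest WT value, and the log2 fold change was -0.21 with a standard error of 0.06 (edgeR adjusted p = 0.169). Of the U5 and tri-snRNP genes, Snrnp200, the helicase that unwinds U4 from U6, had a log2 fold change of 0.20 with a standard error of 0.13 (edgeR adjusted p = 0.426), of which 0.05 was left without KO embryo 5. Snrnp40 had a log2 fold change of -0.13 and -0.06 without that embryo. The minor-spliceosome genes lay on both sides of 0: Snrnp35 was at 16.8 ± 1.46 CPM in KO and 19.1 ± 1.67 CPM in WT embryos (SD, n = 6; log2 fold change -0.19, edgeR adjusted p = 0.262), and Snrnp48 at 17.1 ± 4.9 and 13.9 ± 1.2 CPM (log2 fold change 0.30, edgeR adjusted p = 0.301).

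Of the hnRNP genes, Hnrnpl, which binds CA-rich RNA, ranged from 576 to 644 CPM in KO with a median of 632, and from 648 to 699 CPM in WT with a median of 688. The groups did not overlap, the nearest embryos being at 644 and 648 CPM, and the log2 fold change was -0.12 with a standard error of 0.04 (edgeR adjusted p = 0.169). Hnrnpa0 ranged from 1481 to 1699 CPM in KO and from 1699 to 1797 CPM in WT embryos, with medians of 1665 and 1724. Its groups met almost at the same value, and the log2 fold change was -0.08 with a standard error of 0.04 (edgeR adjusted p = 0.291), or -0.05 without KO embryo 5. Hnrnpu, a large nuclear scaffold protein, was at 1691 ± 134 CPM in KO and 1871 ± 32.1 CPM in WT embryos (SD, n = 6; log2 fold change -0.15, edgeR adjusted p = 0.19).

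Hnrnpab was at 1393 ± 214 and 1593 ± 73.5 CPM (SD, n = 6; log2 fold change -0.19, edgeR adjusted p = 0.275), and Hnrnpa2b1 at 1894 ± 195 and 2082 ± 82.8 CPM (log2 fold change -0.14, edgeR adjusted p = 0.277). Without KO embryo 5 these log2 fold changes were -0.11 and -0.08. Hnrnpa1, the most abundant member, was at 2590 ± 107 and 2721 ± 50.7 CPM (log2 fold change -0.07, edgeR adjusted p = 0.29). All 8 genes of the A/B, C and D types and all 5 of the K, L, M and R types had a log2 fold change below 0, and 2 of the 4 F/H genes did. The F/H gene Hnrnph2, on the X chromosome, was at 214 ± 23.2 CPM in KO and 214 ± 10.7 CPM in WT embryos.

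KO embryo 5 stood apart from the other 11 for these genes. It was the lowest of the 12 embryos for 33 of the 49 members, where it was the lowest for 27.6% of all genes tested, and the highest for 4, where it was the highest for 27.4%. Among the 3 families the difference was greatest in the SR family, in which it was the lowest for 10 of 10 genes. In 2 lists of partner genes described further down, KO embryo 5 was also often the lowest. It was the lowest for 21 and the highest for 1 of 26 tri-snRNP and catalytic factors, and the lowest for 13 and the highest for 2 of 16 branch site and U2 factors. SR genes took 0.218% of its reads, whereas the remaining KO embryos gave 0.35% to 0.424% and WT embryos 0.381% to 0.425%. For hnRNP genes the share was 1.49%, against 1.7% to 1.79% in the remaining KO embryos, and for snRNP genes 0.262%, against 0.27% to 0.28%. These are values of 1 embryo and were not tested against the groups.

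The median SR gene stood at 56.8% of its WT mean in KO embryo 5, with a range from 28% to 93.9%. The medians were 82.8% for hnRNP and 91.4% for snRNP genes. The SR median was 57.6% without TMM factors and 56.1% in FPKM. All 3 divide the same counts by a measure of library size, and gene length cancels in this ratio. Their agreement was thus nearly fixed beforehand and is no separate evidence for the low SR level.

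Srsf6, which binds exonic enhancers (chromosome 2, 162931528 to 162937121), was at 131 CPM in KO embryo 5. The other 11 embryos held between 392 and 486 CPM, so this embryo lay at 28% of the WT mean. Srsf2, also called SC35, a protein of nuclear speckles (chromosome 11, 116849901 to 116853094), was at 273 CPM, against 495 to 679 CPM in the others. Srsf3, the smallest SR protein, was at 366 CPM, against 649 to 847 CPM. Srsf1, the founding SR protein, was at 454 CPM, against 721 to 943 CPM. In each of these 4 genes KO embryo 3 gave the lower bound of the others. Their log2 fold changes were -0.28 for Srsf6, -0.22 for Srsf2, -0.20 for Srsf3 and -0.19 for Srsf1 over all 12, against -0.10, -0.08, -0.07 and -0.07 without it (edgeR adjusted p from 0.477 to 0.555 over all 12). Srsf5 was at 91.9 CPM, against 150 to 190 CPM in the others, and Srsf10 at 164 CPM, against 248 to 298 CPM.

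The remaining SR genes were nearer to WT in that embryo. Srsf11 was at 69.7%, Srsf7 at 78.8% and Srsf4 at 88% of the WT mean. Srsf9 was at 181 CPM, where the rest ranged from 183 to 203 CPM, or 93.9% of the WT mean. So the distance of this embryo from WT differed widely between SR genes. Srsf3, Srsf5, Srsf9, Hnrnpdl, Hnrnpul1 and Hnrnph3 were chosen after their values were seen.

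**Figure D3:**
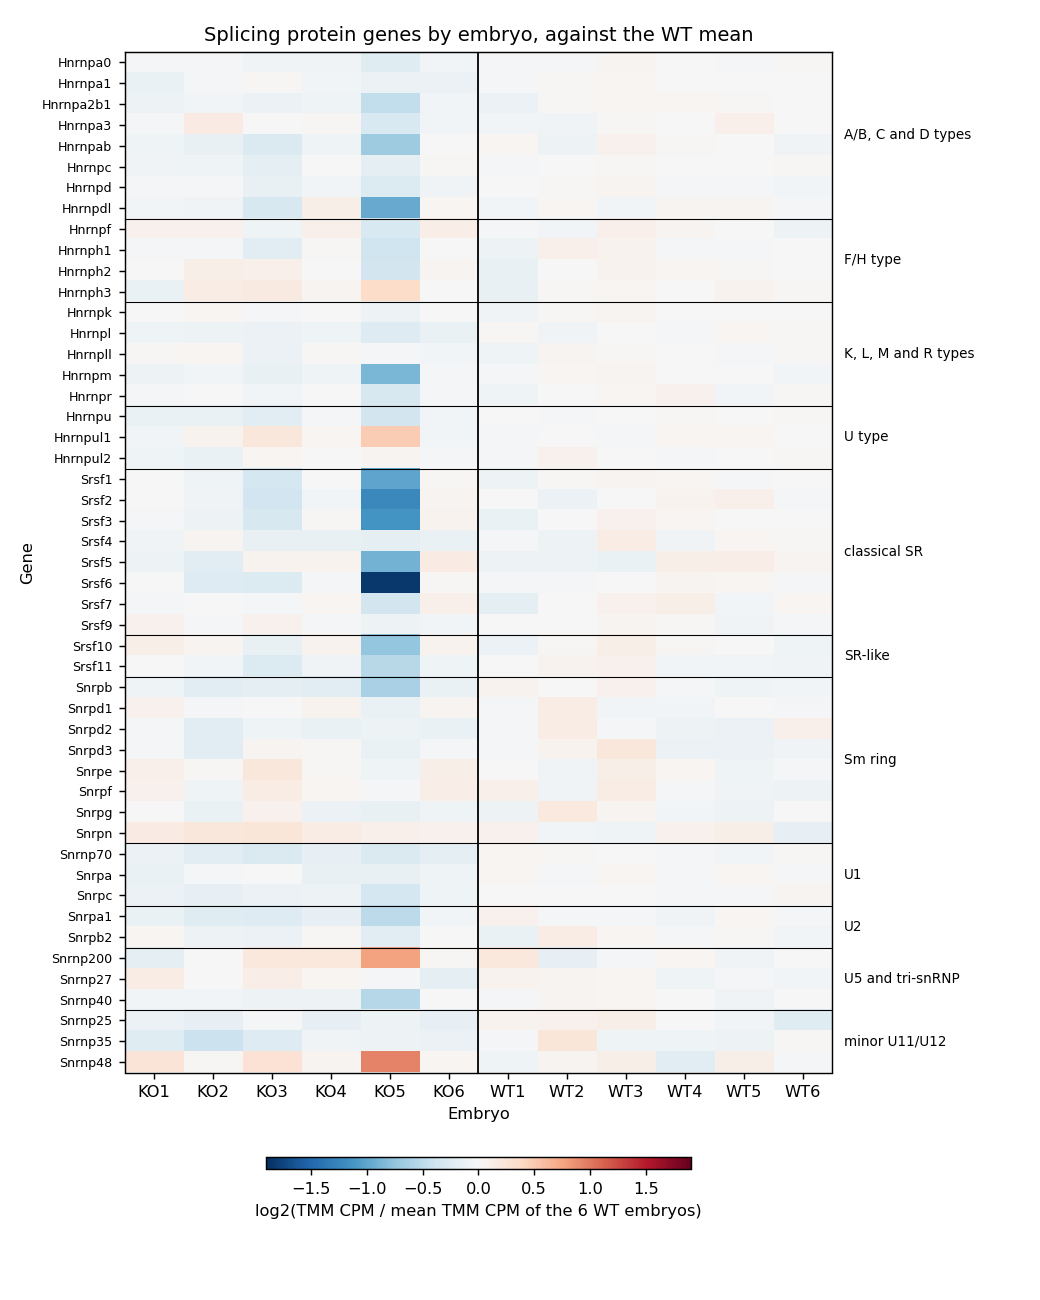
log2 ratio of CPM to the WT mean (colour, blue below and red above) for the 49 genes (vertical axis, grouped by role) in each of the 12 embryos (horizontal axis). KO embryo 5 is the darkest column, with most of the SR genes, Hnrnpdl and Hnrnpm in blue and Snrnp48 and Snrnp200 in red, and KO embryo 3 is a paler version for some SR genes.

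At or under 60% of the WT mean, a limit set after seeing the values, KO embryo 5 held 8 members: 6 SR genes and the hnRNP genes Hnrnpdl and Hnrnpm. Of all genes tested, 7.61% were that low. Hnrnpm, which binds GU-rich RNA, was at 486 CPM in that embryo and between 806 and 920 CPM in the other 11. Hnrnpdl, a relative of Hnrnpd, was at 221 CPM, against 349 to 463 CPM. No snRNP gene was that low, and Snrpb at 65.5% of its WT mean was the lowest of them.

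The 4 members highest in KO embryo 5 were Snrnp48, Snrnp200, Hnrnpul1 and Hnrnph3. Snrnp48 was at 26.8 CPM, where the remaining 11 ranged from 12 to 16.8 CPM. Snrnp200 was at 377 CPM, against 196 to 254 CPM. Hnrnpul1 was at 431 CPM, against 296 to 356 CPM, and Hnrnph3 at 164 CPM, against 116 to 145 CPM. So members were found on both sides of the range in the same library.

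KO embryo 3 was the next lowest for SR genes. Their median log2 ratio to the WT mean was -0.20 there, against -0.82 for KO embryo 5, whereas the remaining 4 KO embryos lay between -0.06 and 0.04 and WT embryos between -0.07 and 0.06. In KO embryo 3, 7 of 10 SR genes were below every WT embryo, whereas KO embryos 1, 2, 4 and 6 had 0, 2, 3 and 2 such genes. The share of all genes tested that lay there was not counted by embryo, so these counts have no background. The hnRNP medians of KO embryos 3 and 5 were -0.09 and -0.27. For the U1 genes the order was different. Their median lay between -0.28 and -0.09 in all 6 KO embryos and between -0.03 and 0.03 in WT embryos. The lower U1 medians were thus shared by the KO embryos and the lower SR medians were not. This was nearly given, since 2 of the 3 U1 genes had groups that did not overlap. It was not particular to U1. Among the members, the 8 hnRNP genes of the A/B, C and D types also had every KO median below every WT median (KO -0.27 to -0.048, WT -0.040 to 0.037). The same held for 3 lists described further down. These were the tri-snRNP and catalytic factors (KO -0.41 to -0.05, WT -0.02 to 0.04), the branch site and U2 factors (KO -0.33 to -0.05, WT -0.03 to 0.02) and the proliferation genes (KO -0.16 to -0.020, WT -0.016 to 0.018).

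**Figure D4:**
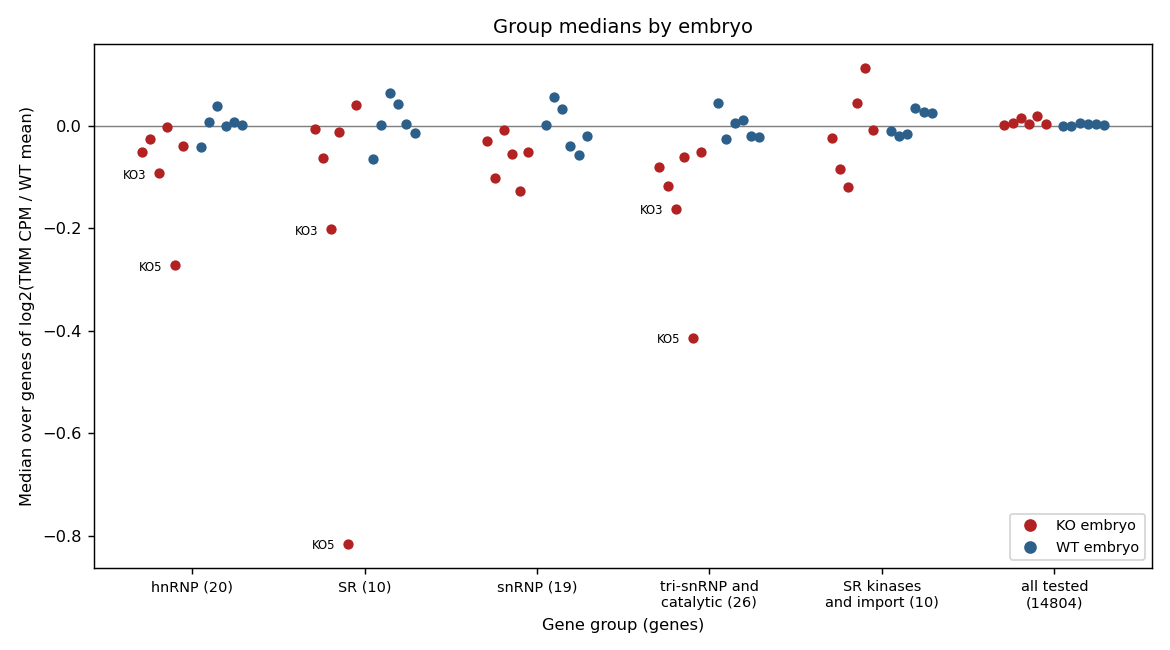
Median over the genes of each group of the log2 ratio of CPM to the WT mean (vertical axis), for each KO (red) and WT (blue) embryo. KO embryo 5 lies at -0.82 for SR genes, -0.27 for hnRNP genes and -0.41 for tri-snRNP and catalytic factors, and KO embryo 3 is next lowest in these 3 groups, while all embryos lie near 0 over all genes tested.

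Some other measures of KO embryo 5 were also at or near an extreme. The summed CPM of a list of genes of the hypoxia response and glycolysis reached 32366 in KO embryo 5. KO embryo 3 had 27513, the remaining KO embryos 18718 to 21800, and the WT embryos 15535 to 20008. Mitochondrially encoded transcripts took 0.286% of its reads. The share was 0.432% for KO embryo 3, 0.386% to 0.75% for the remaining KO embryos, with the lowest of these in KO embryo 6, whose SR median of 0.04 was the highest of the KO embryos, and 0.585% to 0.936% for WT embryos. Neural markers summed to 283 CPM in KO embryo 5, the lowest of the 12, and endothelial markers to 395 CPM, the highest of the 12. Its heart muscle markers at 1259 CPM and yolk sac endoderm markers at 297 CPM were above the WT range, but the highest KO values were 1291 and 419 CPM. Its other marker sums lay within the WT range: somite and trunk mesoderm at 168 CPM (WT 166 to 205), primitive red cell at 4646 CPM (WT 2650 to 6651) and glia and myelin at 35.2 CPM (WT 30.1 to 35.3). Its depth of 21917571 reads was the highest of the 12, and its TMM factor of 1.01 was within the range of the others. The part of each of these in the values of the splicing genes was not tested.

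The spread between embryos also differed between the groups. The median coefficient of variation of SR genes was 20.9% among KO and 4.92% among WT embryos, and 7.97% among KO without embryo 5. For snRNP genes it was 6.58% among KO and 6.24% among WT embryos. Over all genes tested it was 15% among KO, 10.5% without KO embryo 5, and 8.77% among WT embryos. Over the 49 members it was 7.98% among KO, 5.17% without KO embryo 5, and 4.48% among WT embryos.

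Partners of these proteins were read from lists chosen with earlier results of these data known, and none of their genes was called by edgeR. Of 26 factors of the U4/U6.U5 tri-snRNP and the catalytic core, 24 had a log2 fold change below 0, with a median of -0.16, or -0.10 without KO embryo 5. DESeq2 called 3 of them lower: Sart1, which bridges the tri-snRNP to the assembling spliceosome, and the helicase genes Dhx38 and Dhx16, where it called 0.832% of all genes lower. Dhx16 is a close neighbour of 2310061I04Rik, the second gene altered in the KO line. The part of that locus in the values of Dhx16 was not tested. Sart1 ranged from 132 to 162 CPM in KO and from 175 to 195 CPM in WT embryos, with a log2 fold change of -0.26 and a standard error of 0.06 (edgeR adjusted p = 0.159, DESeq2 adjusted p = 0.00806). Dhx38 was at 128 ± 8.26 CPM in KO and 144 ± 3.72 CPM in WT embryos (SD, n = 6; log2 fold change -0.17, DESeq2 adjusted p = 0.0376). In 6 of the 26 genes every KO embryo lay below every WT embryo, Sart1 and Dhx38 among them, against 1.74% of genes tested.

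Of 16 branch site and U2 factors, 14 had a log2 fold change below 0, with a median of -0.13. Sf1, which binds the branch site before U2, had a log2 fold change of -0.19 (edgeR adjusted p = 0.169) and no overlap between groups, and Sf3a2 one of -0.28 (edgeR adjusted p = 0.169). Of 15 genes for snRNP assembly and export, 12 were on the lower side, among them Smn1, which loads Sm proteins onto the RNA, at -0.22 (edgeR adjusted p = 0.203) and Sart3 at -0.11 (edgeR adjusted p = 0.201). Of 10 LSm ring genes 8 were below 0, with a median of -0.05, or -0.02 without KO embryo 5. Lsm2 was at -0.14 (edgeR adjusted p = 0.296) and Lsm6 at -0.13 (edgeR adjusted p = 0.433), and without that embryo they were at -0.08 and -0.05.

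Of 25 SR-related and exon junction genes, 20 were below 0, and 16 without KO embryo 5. The exon junction core genes Eif4a3 and Rbm8a had log2 fold changes of -0.21 (edgeR adjusted p = 0.177) and -0.16 (edgeR adjusted p = 0.18). Of 22 hnRNP relatives, 15 were below 0, but Msi2 and Ptbp2, the pair with the smallest p, were on the higher side at 0.23 and 0.16 (edgeR adjusted p = 0.169 for both). Among the 25 tested regulators restricted to some tissues, 16 were above 0, with Mbnl2 at 0.32 (edgeR adjusted p = 0.169) and Rbfox2 at 0.13 (edgeR adjusted p = 0.211).

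The nonsense-mediated decay factors, which remove poison-exon transcripts, were divided. Of 10, 6 were below 0, with Upf1, the helicase of the pathway, at -0.22 (edgeR adjusted p = 0.169), and Smg1, the kinase that phosphorylates it, at 0.23 (edgeR adjusted p = 0.18).

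The kinases that phosphorylate SR proteins, with their import factor, were 5 below and 5 above 0 of 10, but 8 below and 2 above without KO embryo 5. Srpk2 had a log2 fold change of 0.15 (edgeR adjusted p = 0.266), and Srpk3, at 0.78 ± 0.43 CPM in KO, one of -0.68 (edgeR adjusted p = 0.329). In KO embryo 5, genes of this list lay on both sides of the WT range. Clk1 and Clk4, nuclear kinases that release SR proteins from speckles, were at 37.6 CPM, the others ranging from 14.6 to 33.6 CPM, and at 24.8 CPM, against 7.89 to 19.5 CPM. Srpk1, the main cytoplasmic SR kinase, was at 70.6 CPM, against 112 to 139 CPM, and Prpf4b, a kinase of the tri-snRNP, at 80.1 CPM, against 140 to 177 CPM. These 4 were chosen after their values were seen.

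For comparison with genes outside splicing, all 27 tested genes of the hypoxia and glycolysis list had a log2 fold change above 0, with a median of 0.76. Pdk1 was at 1.11 (edgeR adjusted p = 0.159, DESeq2 adjusted p = 1.59e-05) and Bnip3 at 1.74 (edgeR adjusted p = 0.159, DESeq2 adjusted p = 0.00286). Of 20 proliferation genes 14 were below 0, with a median of -0.08, or -0.07 without KO embryo 5. At an unadjusted p of 0.05 or less by edgeR, 7 of the 20 were lower and 2 higher in KO, against 7.72% and 10.1% of genes tested. Every KO embryo lay below every WT embryo in 3 and above in 1, against 1.74% and 1.09%. For the 49 splicing genes these counts were 10, 1, 5 and 0, so such lower values were not particular to them. Ccna2 was at -0.11 (edgeR adjusted p = 0.174, DESeq2 adjusted p = 0.0421) and Cdc20 at -0.13 (edgeR adjusted p = 0.176, DESeq2 adjusted p = 0.0665).

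Some members share sequence with other genes, so that reads could have been split between them. Of the 49, 10 had at least 10% of the 100-base stretches of their GENCODE transcripts, read on either strand, in a transcript of another gene. The share was 78.3% for Snrpf, most of it with Ccdc38, 49.4% for Hnrnpf, 36.3% for Srsf4, 25.9% for Hnrnpa1 and 25.6% for Hnrnpa3. It was 19.2% for Snrpn, 18.4% for Hnrnpab, mostly with Phykpl, 16.6% for Srsf2, mostly with Mettl23, 12.4% for Hnrnpm and 11.9% for Hnrnpk. Values of these genes are the less certain for it. The share was 0 for Snrpb, Srsf6, Srsf9 and Hnrnpa0 and 0.226% for Snrnp70.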

How the data were processed

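Total RNA from 12 whole E9.5 embryos, 6 KO and 6 WT by their GEO labels, was sequenced and processed by a service provider on GRCm38. Which aligner, counter and strand setting were used is not given in the sources used here. The authors deposited 1 table with raw counts per gene and, beside them, FPKM (counts scaled by depth and gene length). Its columns with the authors' own comparison (group means, fold changes, p-values) were not used. Libraries held 16675204 to 21917571 counts. The members were counted at a mean of 291 reads or more per library, and with 6 embryos per group the spread between embryos sets the precision.

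Counts were fitted over all genes with edgeR 4.0.16 (R 4.3.3) by the quasi-likelihood F test with robust dispersion, TMM scaling, filterByExpr and group as the only term. p-values were two-sided and Benjamini-Hochberg adjusted over 14804 genes, with calls at 0.05. Levels are TMM-scaled CPM. DESeq2 1.42.0, limma-voom with quality weights (limma 3.58.1), other size factors, no filter, limma on log2(FPKM + 1), a replicate block and fits without embryos were the alternatives. The fits were tested on simulated counts. No 2 libraries agreed within sampling noise. Embryos apart from their group of 6 were found by Dixon's ratio above 0.625.

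The members and gene lists were chosen with earlier results of these data known. Genes were named by level, by smallest p, by calls, by groups that did not overlap, by an embryo apart, or by nearness to the count minimum, and for the lists by smallest p. Others are said to be chosen after their values were seen. Promoters came from RefSeq (GRCm38.p6) and transcripts from GENCODE vM21. Tables and plots were made with pandas and matplotlib.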

Additional observations from a re-analysis of the deposited data

Results flagged for a closer look

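For each gene the 6 KO and the 6 WT embryos were searched for 1 embryo far from its group by Dixon's ratio, in 98 groups. Chance alone flags about 1 group in 20. An embryo stood apart in 14 members among KO embryos, each time KO embryo 5, and in 4 members among WT embryos. These are 28.6% and 8.16% of members, against 14.2% and 5.96% of all genes tested. KO embryo 5 itself stood apart for 11.7% of all genes, as the lowest for 5.44% and as the highest for 6.23%.

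KO embryo 5 was the lowest of its group for Srsf6 at 131 CPM, Srsf10 at 164 CPM and Srsf7 at 279 CPM. Among hnRNP genes it was the lowest for Hnrnpa2b1 at 1502 CPM, Hnrnpa0 at 1481 CPM, Hnrnpl at 576 CPM and Hnrnpm at 486 CPM. It was also the lowest for Hnrnpr at 229.6 CPM and Hnrnph2 at 169 CPM. Among snRNP genes it was the lowest for Snrpb at 330 CPM, Snrpc at 119 CPM and Snrnp40 at 107 CPM. It was the highest for Snrnp48 at 26.8 CPM and Snrnp200 at 377 CPM. The same embryo stood apart in the family medians, with a median log2 ratio to the WT mean of -0.82 over SR genes and -0.27 over hnRNP genes.

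The WT cases were in 2 embryos. WT embryo 1 was the lowest for Hnrnpa2b1 at 1919 CPM and for Hnrnph2 at 194 CPM. WT embryo 2 was the highest for Snrnp35 at 22.3 CPM and for Snrpd1 at 180.3 CPM. Srsf1, Srsf2 and Srsf3 gave no flag among KO embryos although KO embryo 5 was far from WT, since KO embryo 3 lay between it and the others.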

How the results depend on the processing

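With edgeR no member was called in any alternative, including each fit that left out 1 embryo (0 to 0 members), while DESeq2 and limma-voom each called 1. The count of genes called over the whole table was 3, against 316 by DESeq2, 53 by limma-voom, 6 by limma on log2(FPKM + 1), 36 without KO embryos 2, 3 and 5, and 2 to 5 with 1 embryo left out. The median log2 fold change of the members was -0.045 by limma-voom, -0.018 without KO embryos 2, 3 and 5, -0.12 without KO embryos 2, 3 and 6 and WT embryo 5, and -0.095 to -0.049 with 1 embryo left out. DESeq2 fits chosen after seeing the data called 3 members without KO embryos 2, 3 and 5, and 1 to 5 members with 1 embryo left out. The 5 members were from the fit without KO embryo 5, where 2.03% of 13612 genes were called lower. For the rest of these fits the share of all genes called was not counted, so their counts have no background. Of 520 fits of a named member, 501 kept direction and side of the threshold, 2 (Snrnp70 by DESeq2 and limma-voom) passed it, and 17 changed sign. The log2 fold change of Hnrnph2 was 0.014 by limma-voom, 0.019 without KO embryos 2, 3 and 5, and -0.033 to 0.054 with 1 embryo left out. That of Srsf10 was 0.039 by limma-voom, 0.084 without KO embryos 2, 3 and 5, and -0.11 to 0.033 with 1 left out. Without KO embryos 2, 3 and 5, Srsf7 was at 0.042, and Srsf1 and Srsf2, at -0.19 and -0.22 over all embryos, were at 0.0078 and 0.0018. With 1 embryo left out, Srsf7 ranged from -0.072 to 0.015 and Snrpd1 from -0.0063 to 0.039. The causes were not tested. Replicate numbers did not pair the embryos (correlations of same-numbered deviations from -0.32 to 0.28, 2 of 6 best with their own number), and with a replicate block 0 members and 2 genes were called, with a median of -0.09.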
